A study of Mus musculus with 6 samples.

Results

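The 10 genes described here code for RNA-binding regulators of alternative splicing: Esrp1, Esrp2, Rbm47, Rbfox2, Ptbp1, Ptbp2, Mbnl1, Mbnl2, Mbnl3 and Celf1. They were taken by symbol from a table of 51826 Ensembl genes, and all 10 were among the 14996 genes with enough counts to be tested. The tested cells were epiblast-like cells (EpiLC), wild-type V6.5 mouse cells on day 3 without Lif and without 2i (n = 3 libraries). They were set against embryonic stem cells (ESC), wild-type V6.5 cells grown with Lif and 2i, which is a GSK3 and a MEK inhibitor (n = 3 libraries). V6.5 is a single mouse ESC line, and both states were kept in Knockout DMEM with fetal bovine serum. EpiLC have exited the naive pluripotent state held by ESC and resemble the epiblast just after implantation. RNA depleted of ribosomal RNA was sequenced, and reads were counted per gene. Nothing in the labels says that the libraries of a state came from separate cultures, so p-values measure the spread between these libraries, which may be technical.

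The state labels were checked against their markers. The 6 naive markers summed to 43.9 to 50.7 CPM in EpiLC libraries, against 2371 to 2536 CPM in ESC libraries. CPM give each count relative to the TMM-corrected total of its library. The 5 formative markers summed to 1167 to 1435 CPM in EpiLC libraries, against 133 to 140.2 CPM in ESC libraries. Library totals ran from 9710410 to 11425054 counts in EpiLC and from 11499687 to 22879812 counts in ESC. A count of 0 allows a level of up to 3 counts, which was 0.135 to 0.301 CPM in these libraries. ESC replicate 3 stood apart from the other ESC libraries, since its counts gave a chi-square of 25.7 and 26.1 per degree of freedom against them, while ESC replicates 1 and 2 gave 2.58 and the EpiLC pairs 2.17 to 4.11. Fewer cells of a kind and less RNA per cell cannot be told apart in these bulk samples.

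A splicing regulator binds short motifs in or beside an exon and helps or blocks the spliceosome there, so the set of regulators in a cell shapes which exons enter its mRNA. ESRP1 and ESRP2 are regulators of epithelial cells, known for the choice between mutually exclusive exons of FGF receptor transcripts, and they are lost when epithelial cells turn mesenchymal. PTBP1 is a broad repressor of exons outside neurons, PTBP2 is its paralog known from developing neurons, and PTBP1 lowers PTBP2 by making its transcript skip an exon. MBNL proteins drive exon patterns of differentiated cells and counter patterns of pluripotent cells, RBFOX2 acts on exons flanked by its motif in many tissues, and CELF1 often acts against MBNL proteins on the same exons.

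The genes of these regulators hold regulated exons of their own, and 4 of them are printed because they are the switches by which the PTBP and MBNL families are known to control their own output. In each sequence below the exon is in capitals and the 20 bases of the neighbouring exon on either side are in lower case, 5′ to 3′ on the transcript, read from GENCODE M21 transcripts on GRCm38.
Ptbp1 34-base exon, chr10:79862014-79862047, plus strand: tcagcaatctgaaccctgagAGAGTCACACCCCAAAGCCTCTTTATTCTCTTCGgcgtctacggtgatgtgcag
Ptbp2 34-base exon, chr3:119724612-119724645, minus strand: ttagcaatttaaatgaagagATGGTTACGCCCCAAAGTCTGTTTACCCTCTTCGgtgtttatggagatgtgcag
Mbnl1 54-base exon, chr3:60614683-60614736, plus strand: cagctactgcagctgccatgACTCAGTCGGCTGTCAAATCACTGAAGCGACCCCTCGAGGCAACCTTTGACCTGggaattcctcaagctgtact
Mbnl2 54-base exon, chr14:120395712-120395765, plus strand: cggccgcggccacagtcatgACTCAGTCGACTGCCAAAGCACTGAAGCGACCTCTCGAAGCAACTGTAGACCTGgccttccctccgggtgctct

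The 34-base exons of Ptbp1 and Ptbp2 were identical at 26 of 34 bases (76.5%). Their length is not a multiple of 3, so skipping shifts the reading frame. GENCODE lists 4 Ptbp1 transcripts with the exon and 3 that span its place without it, of which 2 are annotated as targets of nonsense-mediated decay. For Ptbp2 it lists 3 transcripts with the exon and 3 without, of which 2 carry the same annotation. The 54-base exons of Mbnl1 and Mbnl2 were identical at 46 of 54 bases (85.2%) and keep the frame. This exon is known to hold MBNL1 in the nucleus, and it is carried by 5 Mbnl1 transcripts and missing from 9, and carried by 3 Mbnl2 transcripts and missing from 3. Counts per gene do not separate transcripts with and without these exons, so inclusion was not measured, and the levels below sum over both forms.

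Of the 10 regulators, 7 were higher in EpiLC, 2 were lower (Rbm47 and Mbnl2) and 1 (Rbfox2) did not pass the test. The test was edgeR's quasi-likelihood test with Benjamini-Hochberg adjustment over all 14996 genes, with calls made where the adjusted p was under 0.05. Calls were common in the comparison: 64.6% of all genes tested were called, 32.0% higher and 32.6% lower in EpiLC. At 2-fold or more, 4 of the 10 were higher and 0 were lower, against 17.0% and 12.4% of all genes. The median log2 fold change was 0.50 over the 10 regulators and 0.01 over all genes. The libraries of the 2 states did not overlap for 9 of the 10 regulators, against 70.2% of all genes. The 10 genes were chosen with earlier results of these data known, and the part of that choice in these shares was not tested.

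**Figure D1:**
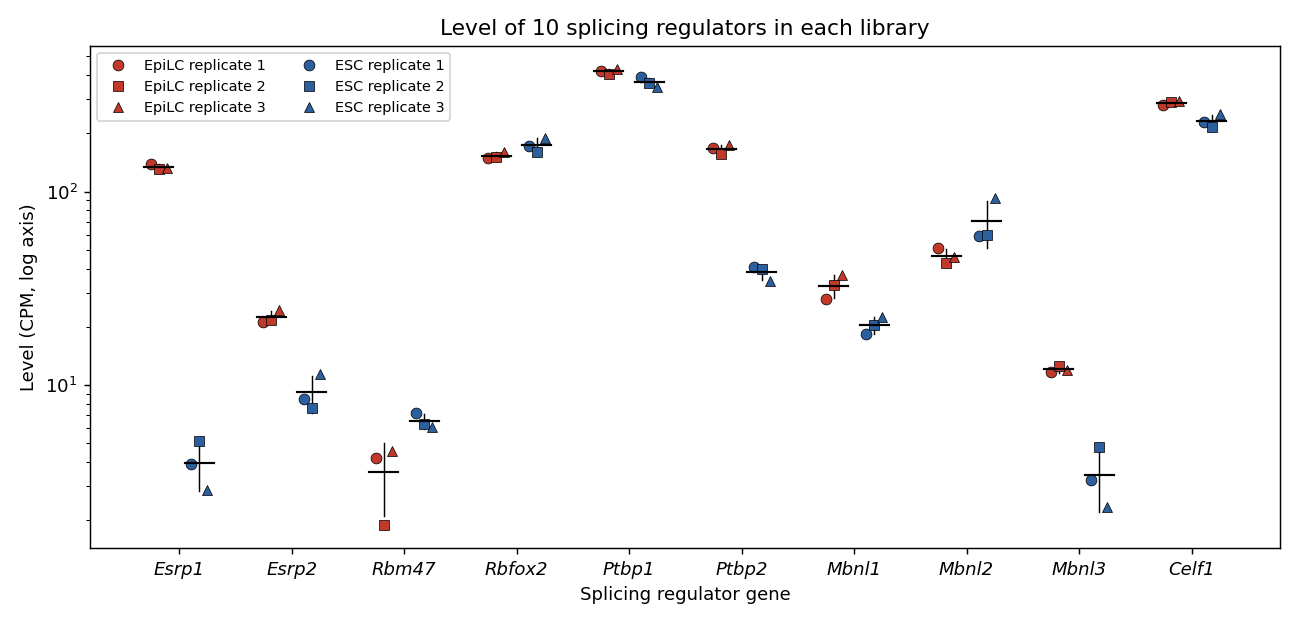
Level of each of the 10 regulators in the 6 libraries, in CPM on a log axis, with EpiLC libraries left of ESC libraries in each pair, a point per library, a horizontal line at the mean of 3 and a vertical line for ± 1 SD. Esrp1 shows the widest gap (134 CPM in EpiLC, 3.97 CPM in ESC), and Rbfox2 is the single gene whose libraries overlap.

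Esrp1 had the largest change of the 10. It had 139, 130.4 and 133 CPM in the EpiLC libraries (1381, 1525 and 1492 counts), against 3.89, 5.14 and 2.87 CPM in the ESC libraries (75, 114 and 33 counts). Every EpiLC library was far above every ESC library, and within EpiLC the spread was small. Esrp1 averaged 134 ± 4.16 CPM in EpiLC and 3.97 ± 1.13 CPM in ESC (SD, n = 3 each), a fold of 32.6. The log2 fold change was 5.03 (SE 0.16, 95% interval 4.66 to 5.39, edgeR adjusted p = 1.53e-07). Of all genes tested, 2.31% changed by more in either direction, and Esrp1 ranked 201 among changes toward EpiLC. The gene lies on chr4:11331933-11386783, minus strand.

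Esrp2, the paralog with overlapping targets, rose less. It had 21.1, 21.6 and 24.5 CPM in the EpiLC libraries, against 8.46, 7.61 and 11.4 CPM in the ESC libraries. The lowest EpiLC library was above the highest ESC library. The means were 22.4 ± 1.81 CPM in EpiLC and 9.16 ± 1.99 CPM in ESC (SD, n = 3 each), with a log2 fold change of 1.32 (SE 0.16, 95% interval 0.95 to 1.68, edgeR adjusted p = 0.000148). Of the exon bases of Esrp2, 5.05% overlap exons of Nfatc3 on the opposite strand, and Nfatc3 had 96.6 CPM in EpiLC and 56.0 CPM in ESC. The strand setting of the counting is not given by the labels, so reads from the shared bases cannot be assigned.

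The order of the 2 paralogs turned over between the states. Per length, Esrp1 gave 80.5 ± 1.49% of the summed ESRP level in EpiLC and 23.5 ± 8.48% in ESC (SD, n = 3 each). The summed level was 64.2 ± 3.51 TPM in EpiLC and 5.78 ± 0.79 TPM in ESC, where TPM are counts per kilobase of merged exons scaled to the same total in every library. Unlike CPM, TPM carry no TMM correction and are divided by each library's own sum of counts per kilobase. Against CPM, TPM read higher in EpiLC than in ESC for these genes. Leaving out TMM alone, with scaling to library totals, moved log2 fold changes by a median of 0.069. The ratio of Esrp1 to Esrp2 counts was 6.58, 6.03 and 5.45 in the EpiLC libraries, against 0.460, 0.675 and 0.252 in the ESC libraries. All 3 EpiLC ratios were above 1 and all 3 ESC ratios below it. The difference of the mean log2 ratios was 3.81, with a two-sided exact permutation p of 0.1, the smallest that 3 against 3 libraries can give, and 0.1 after adjustment over the 4 ratios tested.

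Rbm47, a regulator of epithelial exons that also serves as a cofactor of APOBEC1 in C-to-U RNA editing, moved the other way at a low level. It had 4.22, 1.88 and 4.55 CPM in the EpiLC libraries (42, 22 and 51 counts), against 7.16, 6.31 and 6.10 CPM in the ESC libraries (138, 140 and 70 counts). Each EpiLC library was below each ESC library, and EpiLC replicate 2 was the lowest of all. The means were 3.55 ± 1.45 CPM in EpiLC and 6.52 ± 0.56 CPM in ESC (SD, n = 3 each), with a log2 fold change of -0.90 (SE 0.27, 95% interval -1.53 to -0.27, edgeR adjusted p = 0.0194). Without EpiLC replicate 2 the log2 fold change was -0.58 and still called, and without ESC replicate 1 the call was lost at an adjusted p of 0.0505. The ratio of Esrp1 to Rbm47 counts was 32.9, 69.3 and 29.3 in the EpiLC libraries, against 0.543, 0.814 and 0.471 in the ESC libraries. The mean log2 ratio differed by 6.10 (exact permutation p = 0.1, adjusted 0.1).

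Markers of other lineages that form epithelia are given beside these genes. The 7 trophectoderm markers summed to 237 to 286 CPM in EpiLC libraries, against 79.4 to 86.6 CPM in ESC libraries. Of the 5 that were tested, 3 were higher (Krt18, Krt8 and Krt7, keratins of simple epithelia), 1 was lower (Tfap2c) and 1 was not called (Eomes), and Cdx2 and Elf5 stayed at or under 0.519 CPM in every library. The 4 surface ectoderm markers summed to 0.201 to 0.599 CPM in EpiLC libraries, against 0.360 to 0.871 CPM in ESC libraries, and none of them had enough counts to be tested. The 6 primitive endoderm markers summed to 15.1 to 16.6 CPM in EpiLC libraries, against 3.01 to 8.45 CPM in ESC libraries, with 2 higher and 1 lower of 3 tested. The part of these markers in the ESRP and Rbm47 results was not tested.

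**Figure D2:**
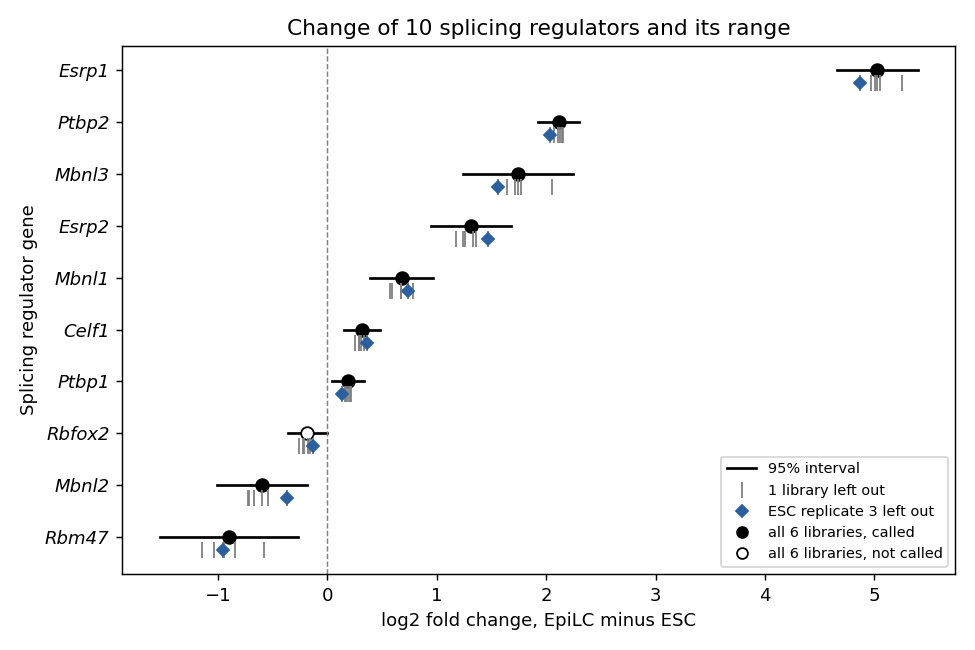
Log2 fold change (EpiLC minus ESC) of each regulator, with a point and its 95% interval from the edgeR fit of all 6 libraries (open point, not called). Ticks are fits with 1 library left out, and the diamond is the fit without ESC replicate 3. Esrp1 (5.03), Ptbp2 (2.12), Mbnl3 (1.74) and Esrp2 (1.32) lie above a log2 fold change of 1, and Rbm47 has the lowest value (-0.90).

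In the PTBP family, Ptbp2 was the member that changed most. It had 168, 157 and 174 CPM in the EpiLC libraries, against 40.6, 39.6 and 34.6 CPM in the ESC libraries. The groups lay far apart and each was tight. The means were 166 ± 8.32 CPM in EpiLC and 38.3 ± 3.24 CPM in ESC (SD, n = 3 each), a fold of 4.33 and a log2 fold change of 2.12 (SE 0.08, 95% interval 1.92 to 2.31, edgeR adjusted p = 3.98e-07). Of all genes, 12.9% changed by more.

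Ptbp1 moved little. It had 422, 406 and 429.6 CPM in the EpiLC libraries, against 389.5, 365 and 348 CPM in the ESC libraries. The groups did not overlap, but the gap between the lowest EpiLC and the highest ESC library was narrow. The means were 419 ± 12.2 CPM in EpiLC and 368 ± 20.8 CPM in ESC (SD, n = 3 each), with a log2 fold change of 0.19 (SE 0.06, 95% interval 0.04 to 0.34, edgeR adjusted p = 0.0280). The call was lost without a filter on low counts (log2 fold change 0.12, adjusted p = 0.310), with DESeq2 (0.0946), and without ESC replicate 2 (0.108) or any 1 of the EpiLC replicates 1, 2 and 3 (0.0757, 0.0532 and 0.117). Genes on the opposite strand overlap 9.22%, 6.22% and 5.30% of the exon bases of Ptbp1, and they averaged at most 7.98 CPM in EpiLC and 4.65 CPM in ESC.

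The balance of Ptbp1 and Ptbp2 differed between the states. The ratio of Ptbp1 to Ptbp2 counts was 2.51, 2.58 and 2.48 in the EpiLC libraries, against 9.59, 9.21 and 10.1 in the ESC libraries. The difference of the mean log2 ratios was -1.93 (exact permutation p = 0.1, adjusted 0.1). Per length, Ptbp2 gave 13.8 ± 0.28% of the summed PTBP level in EpiLC and 3.65 ± 0.30% in ESC, while Ptbp1 gave 67.5 ± 0.49% in EpiLC and 67.7 ± 2.99% in ESC (SD, n = 3 each). The remaining share was that of Ptbp3, the other paralog, with 18.7 ± 0.57% in EpiLC and 28.6 ± 3.28% in ESC. Ptbp3 fell to 183 ± 8.59 CPM in EpiLC, against 245 ± 27.2 CPM in ESC, a log2 fold change of -0.42 (edgeR adjusted p = 0.0031).

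PTBP2 is best known from neurons, so neuronal markers are given beside it. The 7 neuronal markers summed to 159 to 161 CPM in EpiLC libraries, against 243 to 384 CPM in ESC libraries. Most of that sum was Stmn2, at 84.1 ± 5.84 CPM in EpiLC and 281 ± 77.3 CPM in ESC. Of the 6 tested, 4 were higher (Syt1, Snap25, Map2 and Syp), 1 was lower (Stmn2) and Tubb3 was not called. Dcx, a marker of migrating neurons, was at 0.963 ± 0.236 CPM in EpiLC and at 0 in the 3 ESC libraries. Their part in the Ptbp2 result was not tested.

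The 3 MBNL genes did not move together. Mbnl3, the X-linked member, had 11.6, 12.6 and 12.0 CPM in the EpiLC libraries, against 3.22, 4.78 and 2.35 CPM in the ESC libraries. All EpiLC libraries were above all ESC libraries. The means were 12.1 ± 0.47 CPM in EpiLC and 3.45 ± 1.23 CPM in ESC (SD, n = 3 each), with a log2 fold change of 1.74 (SE 0.22, 95% interval 1.24 to 2.25, edgeR adjusted p = 0.000189).

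Mbnl1 had 28.0, 32.9 and 36.9 CPM in the EpiLC libraries, against 18.3, 20.5 and 22.4 CPM in the ESC libraries. The groups did not overlap. The log2 fold change was 0.68 (SE 0.13, 95% interval 0.39 to 0.97, edgeR adjusted p = 0.00158).

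Mbnl2 was the MBNL gene that fell. It had 51.1, 42.5 and 45.8 CPM in the EpiLC libraries, against 58.9, 59.5 and 92.9 CPM in the ESC libraries. The groups did not overlap, and ESC replicate 3 was well above the other ESC libraries. The means were 46.5 ± 4.33 CPM in EpiLC and 70.5 ± 19.5 CPM in ESC (SD, n = 3 each), with a log2 fold change of -0.59 (SE 0.18, 95% interval -1.01 to -0.18, edgeR adjusted p = 0.0185). Without ESC replicate 3 the log2 fold change was -0.37 (adjusted p = 0.000249), and the call was lost without EpiLC replicate 2 (0.0751) or EpiLC replicate 3 (0.0570).

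The summed MBNL level per length was 16.4, 16.4 and 18.2 TPM in the EpiLC libraries, against 12.8, 13.9 and 19.98 TPM in the ESC libraries. The groups overlapped through ESC replicate 3, the highest of all. The means were 17.0 ± 1.09 TPM in EpiLC and 15.6 ± 3.87 TPM in ESC (SD, n = 3 each), a difference of 1.44 TPM that was smaller than the ESC spread. Without ESC replicate 3, an omission added after seeing the data, the ESC mean was 13.3 TPM, the difference was 3.65 TPM, and every EpiLC library was above both remaining ESC libraries. Both differences are in TPM, which carry no TMM correction and are divided by each library's own sum of counts per kilobase. Against CPM, TPM read higher in EpiLC than in ESC. The size of both differences depends on that scale, and no direction is read from the difference of 1.44 TPM. The makeup of the sum, which does not depend on scaling between libraries, differed between the states. Mbnl2 gave 55.3 ± 4.14% in EpiLC and 79.2 ± 4.53% in ESC, Mbnl1 gave 24.9 ± 3.37% in EpiLC and 15.1 ± 1.87% in ESC, and Mbnl3 gave 19.7 ± 1.38% in EpiLC and 5.69 ± 2.68% in ESC. The ratio of Mbnl3 counts to those of Mbnl1 plus Mbnl2 was 0.147, 0.167 and 0.145 in the EpiLC libraries, against 0.0417, 0.0597 and 0.0204 in the ESC libraries. The mean log2 ratio differed by 2.04 (exact permutation p = 0.1, adjusted 0.1).

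**Figure D3:**
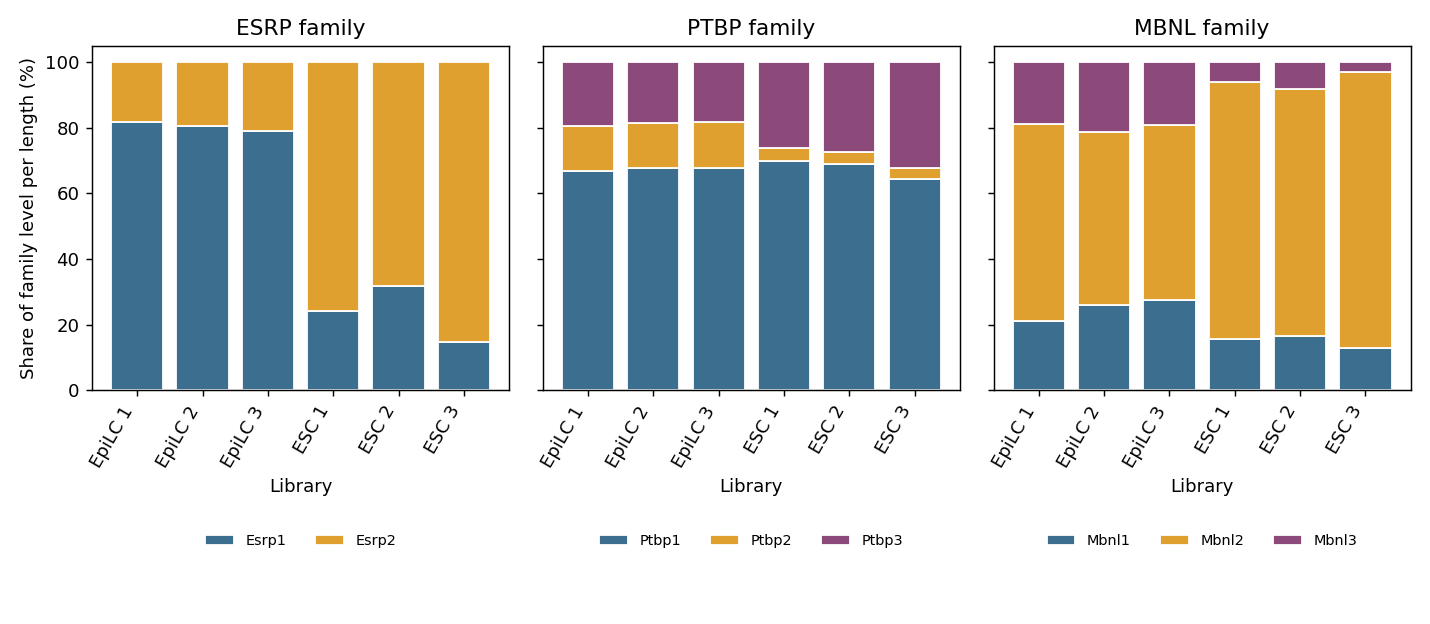
Share of each paralog in the summed level per length of the ESRP, PTBP and MBNL families, in percent, a stacked bar per library with the 3 EpiLC libraries left of the 3 ESC libraries in each panel. On average Esrp1 takes 80.5% of the ESRP level in EpiLC and 23.5% in ESC, Ptbp2 takes 13.8% of the PTBP level in EpiLC and 3.65% in ESC, and Mbnl3 takes 19.7% of the MBNL level in EpiLC and 5.69% in ESC.

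MBNL and CELF proteins are known for their opposed action in muscle, and the 6 striated muscle markers summed to 77.3 to 84.2 CPM in EpiLC libraries, against 422 to 819 CPM in ESC libraries. Nearly all of that sum was Ttn, at 68.0 ± 3.77 CPM in EpiLC and 563 ± 220.3 CPM in ESC, whose highest library was ESC replicate 3 as for Mbnl2. Of the 3 muscle markers tested, Ttn was lower and 2 were higher: Actc1 averaged 2.78 ± 0.34 CPM in EpiLC and 0.0646 ± 0.0564 CPM in ESC (log2 fold change 5.06), and Myh6 averaged 8.60 ± 0.87 CPM in EpiLC and 1.71 ± 0.0512 CPM in ESC (2.32). The other 3 had too few counts to be tested, and of these the defining factors Myod1 and Myog stayed at or under 0.261 CPM in every library. The part of these markers in the MBNL and Celf1 results was not tested.

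Celf1, a regulator of splicing and of mRNA decay, had 279.6, 290.4 and 295 CPM in the EpiLC libraries, against 229, 215 and 251 CPM in the ESC libraries. The groups did not overlap. The means were 288 ± 7.95 CPM in EpiLC and 231 ± 18.1 CPM in ESC (SD, n = 3 each), with a log2 fold change of 0.32 (SE 0.07, 95% interval 0.16 to 0.48, edgeR adjusted p = 0.00434). Of all genes, 66.8% changed by more. Celf1 gave 88.3 ± 1.18% of the summed CELF level per length in EpiLC and 90.1 ± 1.53% in ESC.

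Rbfox2 had 149, 151 and 160.4 CPM in the EpiLC libraries, against 172, 160.2 and 190.3 CPM in the ESC libraries. The highest EpiLC library was level with the lowest ESC library, so the groups overlapped. The means were 153 ± 6.33 CPM in EpiLC and 174 ± 15.2 CPM in ESC (SD, n = 3 each), with a log2 fold change of -0.18 (SE 0.08, 95% interval -0.36 to -0.00479, edgeR adjusted p = 0.0676). The gene passed the threshold without a filter on low counts (0.0346), without ESC replicate 2 (0.0302) and without ESC replicate 3 (0.0383). Rbfox2 gave 97.9 ± 0.17% of the summed RBFOX level per length in EpiLC and 99.2 ± 0.32% in ESC.

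The levels per length place the 10 regulators on a common scale. This scale orders genes within a state. Between the states it carries no TMM correction and is also set by each library's own sum of counts per kilobase. Rbfox2 had 45.8 TPM in EpiLC and 45.1 TPM in ESC, while its CPM were 153 in EpiLC and 174 in ESC. In the fit scaled to library totals, also without TMM, its log2 fold change was -0.12, against -0.18 with TMM. In EpiLC the order was Ptbp1 at 215 TPM, Celf1 at 83.0, Esrp1 at 51.6, Rbfox2 at 45.8, Ptbp2 at 44.0, Esrp2 at 12.6, Mbnl2 at 9.39, Mbnl1 at 4.25, Mbnl3 at 3.35 and Rbm47 at 1.21 TPM. In ESC it was Ptbp1 at 163 TPM, Celf1 at 57.7, Rbfox2 at 45.1, Mbnl2 at 12.4, Ptbp2 at 8.77, Esrp2 at 4.46, Mbnl1 at 2.30, Rbm47 at 1.91, Esrp1 at 1.32 and Mbnl3 at 0.83 TPM. Esrp1 was thus at rank 3 in EpiLC and rank 9 in ESC. In EpiLC the neighbours Esrp1 and Rbfox2, Rbfox2 and Ptbp2, and Mbnl1 and Mbnl3 had overlapping ranges of mean ± SD. In ESC this held for Mbnl2 and Ptbp2, for Mbnl1 and Rbm47, and for Esrp1 and Mbnl3. With the length of the longest transcript in place of merged exons, Ptbp2 was at rank 2 in EpiLC at 85.2 TPM, above Celf1 at 76.2 and Esrp1 at 71.9 TPM, and the summed shares became 84.6% in EpiLC and 28.8% in ESC for Esrp1, 20.5% in EpiLC and 5.87% in ESC for Ptbp2, 66.1% in EpiLC and 71.9% in ESC for Ptbp1, and 15.5% in EpiLC and 4.61% in ESC for Mbnl3. Among all tested genes, the level of Esrp1 stood at percentile 82.5 in EpiLC and 16.5 in ESC, that of Ptbp2 at 79.8 in EpiLC and 46.0 in ESC, and that of Ptbp1 at 96.7 in EpiLC and 95.6 in ESC.

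The genes with the profile most like that of Esrp1 were taken by the Euclidean distance of centred log2 CPM over the 6 libraries, among 9744 genes that averaged 10 CPM or more in the higher state. They were Mcoln3 at a distance of 0.422, Moxd1 at 0.459, Piezo2 at 0.497, Amot at 0.590 and Pdlim3 at 0.610. Mcoln3, an endolysosomal cation channel, had 16.6 CPM in EpiLC and 0.401 CPM in ESC, and Amot, an angiomotin of the Hippo pathway, had 65.6 CPM in EpiLC and 1.77 CPM in ESC. For Rbm47, the member with the most negative change, the nearest of 9745 genes were Rabgef1 at 0.714, Alkbh2 at 0.718, Tepsin at 0.744, Mpp1 at 0.779 and Mtfr2 at 0.781. Rabgef1, an exchange factor for Rab5, had 17.3 CPM in EpiLC and 30.7 CPM in ESC. The 6 libraries fall into 2 states, so such nearness mostly means a like difference between the states.

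The relatives of the 10 regulators were read out in the same fit. The counts of this list and of those below stand beside 32.0% higher and 32.6% lower among all genes tested. Of 10 listed paralogs, 6 were tested, of which 4 were higher in EpiLC and 1 (Ptbp3) was lower, with a median log2 fold change of 0.75. Rbm46, a relative of Rbm47 known from germ cells, rose to 5.29 ± 0.67 CPM in EpiLC, against 0.649 ± 0.124 CPM in ESC (log2 fold change 3.07). Rbfox3, known as the neuronal antigen NeuN, rose to 2.35 ± 0.0983 CPM, against 0.924 ± 0.394 CPM in ESC (1.41), and Celf2 to 18.9 ± 1.83 CPM, against 10.6 ± 4.54 CPM in ESC (0.89). Celf5 was not called, and A1cf, the other APOBEC1 cofactor, was at 0 in all 6 libraries.

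General splicing factors moved by less. Of 13 SR and related proteins, which mostly promote exon inclusion, 5 were higher, 0 were lower and 8 had no call in edgeR, the median log2 fold change was 0.16, and none passed 2-fold. The lower count was also 0 at an unadjusted p under 0.05, and 0 with DESeq2 and limma. Without ESC replicate 3, 2 of the list were called lower, and with DESeq2 3 were called higher. Srsf9 averaged 69.5 ± 3.50 CPM in EpiLC and 53.6 ± 2.76 CPM in ESC (0.38), and Srsf3 averaged 298 ± 8.24 CPM in EpiLC and 231 ± 22.6 CPM in ESC (0.36). Of 23 hnRNP genes, the class to which Ptbp1 belongs, 9 were higher, 3 lower and 11 without a call, and the median was 0.10 and none past 2-fold. Without ESC replicate 3 the lower count was 7. Pcbp2 averaged 217 ± 5.04 CPM in EpiLC and 124 ± 26.8 CPM in ESC (0.82), Hnrnph1 averaged 515 ± 20.3 CPM in EpiLC and 305 ± 27.1 CPM in ESC (0.76), and Hnrnpul2 averaged 217 ± 17.4 CPM in EpiLC and 313 ± 8.82 CPM in ESC (-0.53). Some of these genes have near-identical processed copies elsewhere in the genome, and how the counting treated reads that map to several places is not given by the labels.

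Of 20 other sequence-specific regulators, 17 were tested, of which 8 were higher, 4 lower and 5 without a call, and the median log2 fold change was 0.32. The lower count was 2 without EpiLC replicate 2 and 1 without EpiLC replicate 3. Of the higher ones 4 passed 2-fold. Elavl3, a neuronal Hu protein, averaged 13.7 ± 1.94 CPM in EpiLC and 2.94 ± 0.43 CPM in ESC (2.22). Srrm3, a regulator of microexons, averaged 3.48 ± 0.90 CPM in EpiLC and 1.14 ± 0.36 CPM in ESC (1.66). Raver2, a partner of PTBP1, averaged 62.6 ± 4.95 CPM in EpiLC and 20.01 ± 3.29 CPM in ESC (1.64). Srrm4, the other microexon regulator, stayed under the count filter at 0.665 ± 0.204 CPM in EpiLC and 0.912 ± 0.420 CPM in ESC.

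The spliceosome's own subunits split in both directions, as all genes tested did (32.0% higher and 32.6% lower). Of 29, 7 were higher, 9 lower and 13 without a call, and their median log2 fold change was -0.14. Without ESC replicate 3 the lower count was 16, and without a filter on low counts the higher count was 4. Cdc5l, a subunit of the PRP19 complex, was the single one past 2-fold, at 78.8 ± 1.98 CPM in EpiLC and 251 ± 6.12 CPM in ESC (-1.67, edgeR adjusted p = 2.35e-07). Sf3b3, a subunit of the U2 particle, averaged 900.2 ± 44.3 CPM in EpiLC and 528 ± 25.5 CPM in ESC (0.77), and Prpf6, of the tri-snRNP, averaged 146 ± 4.08 CPM in EpiLC and 209 ± 11.02 CPM in ESC (-0.52).

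**Figure D4:**
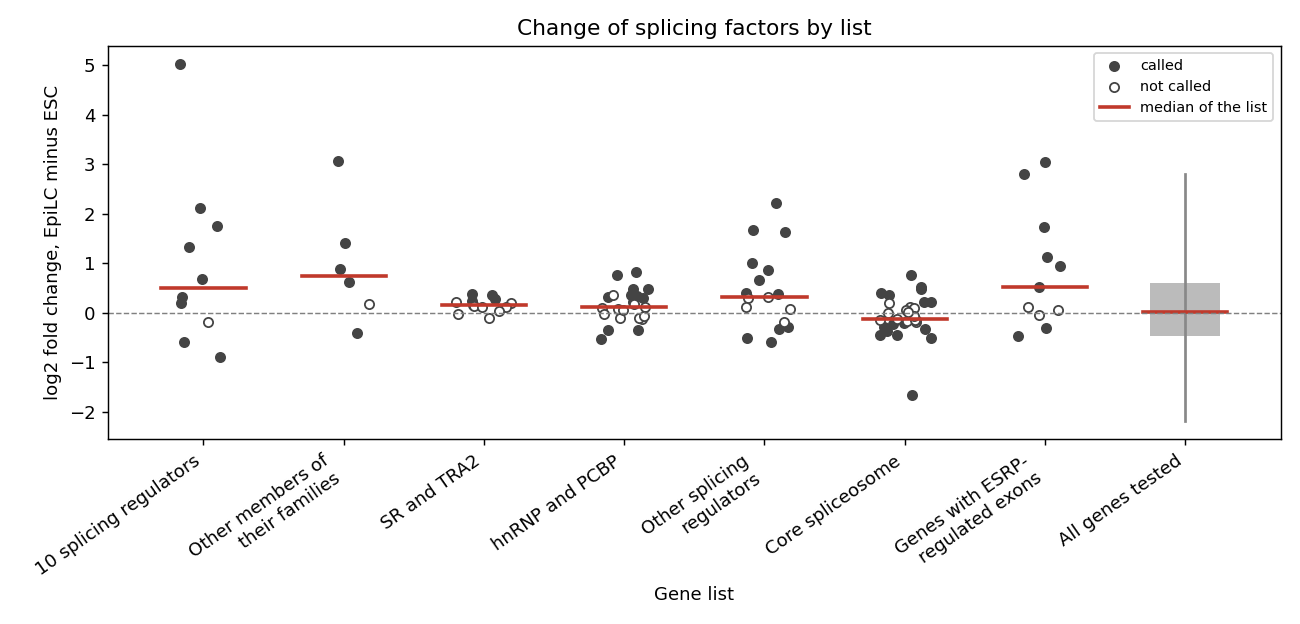
Log2 fold changes (EpiLC minus ESC) of the tested genes of each list, a point per gene (filled where called), with red lines at the medians. For all genes tested the box spans percentiles 25 to 75 and the line percentiles 5 to 95. The 10 regulators reach from -0.90 to 5.03, while the SR proteins reach from -0.11 to 0.38 and the hnRNP genes from -0.53 to 0.82.

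Genes that hold exons known to be set by ESRP proteins were read out for their total level. Of 11 such genes, 6 were higher, 2 lower (Enah and Nf2) and 3 without a call, and the median log2 fold change was 0.51. The lower count was 1 without ESC replicate 1, ESC replicate 2, EpiLC replicate 1 or EpiLC replicate 2. Cd44, a hyaluronan receptor with a block of variable exons, averaged 6.52 ± 0.94 CPM in EpiLC and 0.763 ± 0.146 CPM in ESC (3.03). Fgfr2 averaged 23.1 ± 4.35 CPM in EpiLC and 3.48 ± 1.40 CPM in ESC (2.79), and Fgfr3 averaged 5.78 ± 0.96 CPM in EpiLC and 1.83 ± 0.53 CPM in ESC (1.72). Enah, an actin regulator, averaged 257 ± 14.4 CPM in EpiLC and 355 ± 35.9 CPM in ESC (-0.47). Scrib, Arhgef11 and Slk had log2 fold changes of -0.05, 0.05 and 0.11.

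Among 13 genes that set or mark epithelial or mesenchymal state, 9 were tested, of which 7 were higher and 2 lower, with a median log2 fold change of 1.46. The 2 that fell were Zeb1, known from human carcinoma cells as a repressor of ESRP1, at 2.88 ± 1.06 CPM in EpiLC and 30.2 ± 4.41 CPM in ESC (-3.37), and Grhl3 (-3.35). Grhl2, a paralog of Grhl3 and an activator of epithelial genes, averaged 59.2 ± 4.74 CPM in EpiLC and 9.40 ± 2.11 CPM in ESC (2.66). Epcam (1.94), Ovol2 (1.46), Grhl1 (1.27) and Cdh1 (0.78) rose too. Factors known to drive mesenchymal state were also among the 7 that rose: Twist1 averaged 10.9 ± 0.58 CPM in EpiLC and 2.80 ± 0.75 CPM in ESC (2.02), and Zeb2, the paralog of Zeb1, averaged 2.55 ± 0.41 CPM in EpiLC and 0.645 ± 0.170 CPM in ESC (1.96). The 7 fibroblast markers summed to 14.6 to 18.7 CPM in EpiLC libraries, against 10.1 to 13.8 CPM in ESC libraries, with 3 higher, 1 lower and 1 not called of 5 tested. Dcn, a proteoglycan of connective tissue, had 40, 56 and 47 counts in the EpiLC libraries and 0 in each ESC library. Col1a2, a chain of collagen I, averaged 3.83 ± 0.62 CPM in EpiLC and 0.140 ± 0.0442 CPM in ESC (log2 fold change 4.76). Pdgfrb fell (-2.02), and Lum had a single count over all 6 libraries. The part of these markers in the ESRP and Rbm47 results was not tested.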

How the data were processed

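The deposited table held the authors' raw counts of reads for each Ensembl gene in 6 libraries. Per the submitters' processing notes, the tools were cutadapt, STAR, featureCounts and DESeq2, and the build was mm10. Per the labels' protocols, RNA was extracted with Trizol, depleted with Ribo-Zero Gold and made into libraries with a Kapa stranded kit. Not given in the sources used here are tool versions, the strand setting and how multi-mapping reads were treated. The 92 spike-in rows held 0 counts and were left out. Of 51826 identifiers, 51633 were matched to symbols in GENCODE M21 (GRCm38, the assembly of mm10), and the other 193 held at most 0.033% of the counts of a library.

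Counts were tested with edgeR 4.0.16 in R 4.3.3 (quasi-likelihood, TMM scaling, group as the single term, two-sided). Genes were kept by filterByExpr, which asked for 15 counts in total and a minimum CPM in at least 3 libraries. That minimum equals 10 counts in a library of median size. P-values were adjusted by Benjamini-Hochberg over all 14996 genes tested. Values are mean ± SD over 3 libraries. Counting limits cover counting error only. Count ratios were compared by two-sided exact permutation over libraries. Alternatives used DESeq2 1.42.0, limma 3.58.1 (voom), other scalings and filters, and leaving out each library.

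The 10 genes and the gene lists were chosen with earlier results of these data known. Genes named beyond the 10 are, per list, up to 3 called genes with the largest change that averaged 1 CPM or more in the higher state, with uncalled genes at that level as values, and the 5 nearest profiles to Esrp1 and Rbm47. Enah, Nf2 and markers, paralogs or genes of epithelial or mesenchymal state outside this rule were named after their values were seen. Counts were also simulated from the gene means and library sizes of these data (14662 genes tested). The fit called 31 of 65 genes changed 1.5-fold (47.7%), 52 of 67 changed 2-fold (77.6%) and 63 of 63 changed 4-fold. It also called 5 of 14467 unchanged genes. The simulation changed few genes, gave every gene the same dispersion and set no library apart. In the data 64.6% of genes were called and ESC replicate 3 stood apart, so these rates need not hold there.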

Additional observations from a re-analysis of the deposited data

How the results depend on the processing

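Esrp1, Esrp2, Ptbp2, Mbnl1, Mbnl3 and Celf1 kept their direction and their call under all 14 alternatives. Esrp1 ranged from 4.86 to 5.25 on the log2 scale, Ptbp2 from 2.04 to 2.18, Mbnl3 from 1.56 to 2.06 and Esrp2 from 1.18 to 1.47. No regulator changed sign in these fits. In TPM, outside the fits, Rbfox2 was slightly higher in EpiLC (45.8) than in ESC (45.1). The calls of Rbm47, Mbnl2, Ptbp1 and Rbfox2 depended on the setting, as given beside each, and the cause was not tested. Leaving out 1 library at a time, the number of the 10 called lower ran from 1 to 3 and the number of all genes called from 8514 to 11731. Over the same omissions, the higher counts ran from 2 to 5 for the paralogs, 3 to 6 for SR proteins, 5 to 8 for the spliceosome and 1 to 2 for primitive endoderm markers. The lower counts ran from 0 to 2 for SR proteins, 2 to 7 for hnRNP genes, 1 to 4 for other regulators, 7 to 16 for the spliceosome, 1 to 2 for ESRP exon genes, 1 to 2 for neuronal markers and 1 to 2 for trophectoderm markers. SR proteins called higher were 2 without a filter on low counts and 3 with DESeq2, and spliceosome subunits called higher were 4 without that filter. Other scalings moved the median of all genes by at most 0.069 on the log2 scale. Same-numbered libraries did not deviate together (correlations of -0.0767, -0.0072 and -0.136). Deviations from a mean of 3 libraries are not independent, and ESC replicate 3 stood apart. These values therefore cannot show whether the numbers pair libraries. With a replicate block 9234 genes were called, and 8 of the 10 regulators, since Ptbp1 missed the threshold at an adjusted p of 0.0591. The ratios of counts kept their direction throughout. At 22 to 140 counts, Rbm47 is the regulator most limited by depth.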
